A study of Mus musculus with 20 samples.

Results

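The respiratory chain genes described here are the 106 genes whose symbols begin with Nduf, Uqcr, Atp5, mt- or Cox4 to Cox8, or are Sdha, Sdhb, Sdhc, Sdhd, Cyc1 or Cycs, of 13256 genes listed in every expression table. The nucleus encodes 93 of them and the mitochondrial genome 13. RNA sequencing measured mouse hippocampus in 20 libraries, with 5 libraries for each of 4 groups, WT and KO females and WT and KO males. The WT mice are the strain labelled C57; the other mice are called Fmr1 KO in the sample titles and Fmr1 knockdown in the genotype field, and no other allele or agent is named. Each title of the 4 groups also holds the tag Con, which no label spells out. The labels give no ages and do not say whether the replicates of a group came from separate animals, so p-values measure the spread between these libraries. Expression is given in FPKM, a fragment count divided by the transcript's length and by the library's mapped fragments. As a value per length it allows levels of different genes to be compared only roughly, since how evenly transcripts were captured is not known.

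The respiratory chain lies in the inner mitochondrial membrane. Complex I takes electrons from NADH and complex II from succinate, both pass them to ubiquinone, complex III passes them on to cytochrome c and complex IV to oxygen, and complex V uses the proton gradient so formed to make ATP. Complex II is wholly nuclear, whereas the other complexes combine nuclear subunits, made in the cytosol and imported, with a few core subunits made inside the mitochondrion from mitochondrial transcripts. Neurons use much of this ATP to restore ion gradients after electrical activity.

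Fmr1, which encodes the RNA-binding protein FMRP, ranged from 9.85 to 11.8 FPKM in the WT libraries and from 2.90 to 3.72 FPKM in the KO libraries, so all 20 libraries fitted their genotype labels. The dentate granule cell gene Prox1 averaged 14.4 to 17.6 FPKM in the 4 groups. Some libraries held transcripts of tissues outside the hippocampus. Ttr, the main product of the choroid plexus, exceeded 500 FPKM in 1 library each of WT females (replicate 4) and KO males (replicate 2) and in female KO replicates 4 and 5, and the pituitary hormone gene Prl was above 4 FPKM in female KO replicates 2, 3 and 4. Leaving out the libraries high in Prl thus keeps only female KO replicates 1 and 5. A call lost in that fit cannot be told apart from one lost to the smaller group. Male WT replicate 3 stood apart in the respiratory chain itself: it was the lowest of 20 libraries for 60 of the 93 nuclear genes. The files give no read counts, so the depth behind each value is unknown. In whole tissue, fewer cells of a type and less RNA per cell cannot be told apart.

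The 13 mitochondrial messenger RNAs made up far more of the measured RNA than the 93 nuclear ones. They took 17.5% to 20.4% of all FPKM in a library, and the nuclear genes took 2.04% to 2.72%. The lowest mitochondrial transcript, mt-Nd6, averaged 386 FPKM over 20 libraries, just above the highest nuclear transcript, Cox8a, at 364 FPKM. Their ranges overlapped, at 332 to 436 FPKM for mt-Nd6 and 287 to 452 FPKM for Cox8a. The order was reversed in some libraries, such as female KO replicate 4, with Cox8a at 452 and mt-Nd6 at 395 FPKM. The median of the 13 was 3733 FPKM and that of the 93 was 53.4 FPKM, with 21 nuclear genes at 100 FPKM or more and 13 below 10 FPKM.

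The ratio of the 2 sums separated the female genotypes. The nuclear genes took 2.54% ± 0.068 (SD, n = 5) of all FPKM in female WT and 2.65% ± 0.063 in female KO. The mitochondrial genes took 19.4% ± 0.27 in female WT and 18.5% ± 0.65 in female KO. The nuclear share was thus higher and the mitochondrial share lower in female KO, with overlap in each. The ratio of the mitochondrial to the nuclear sum was 7.37, 7.39, 7.97, 7.94 and 7.52 in the female WT libraries. It was 6.95, 6.78, 7.05, 6.93 and 7.26 in the female KO libraries, so that every female KO library lay below every female WT library. In males the ratio was 7.97 ± 1.15 in WT and 7.60 ± 0.58 in KO and the groups overlapped. Male WT replicate 3 had the highest ratio, 9.86, and its nuclear sum of 4706 FPKM was the lowest of all libraries.

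**Figure D1:**
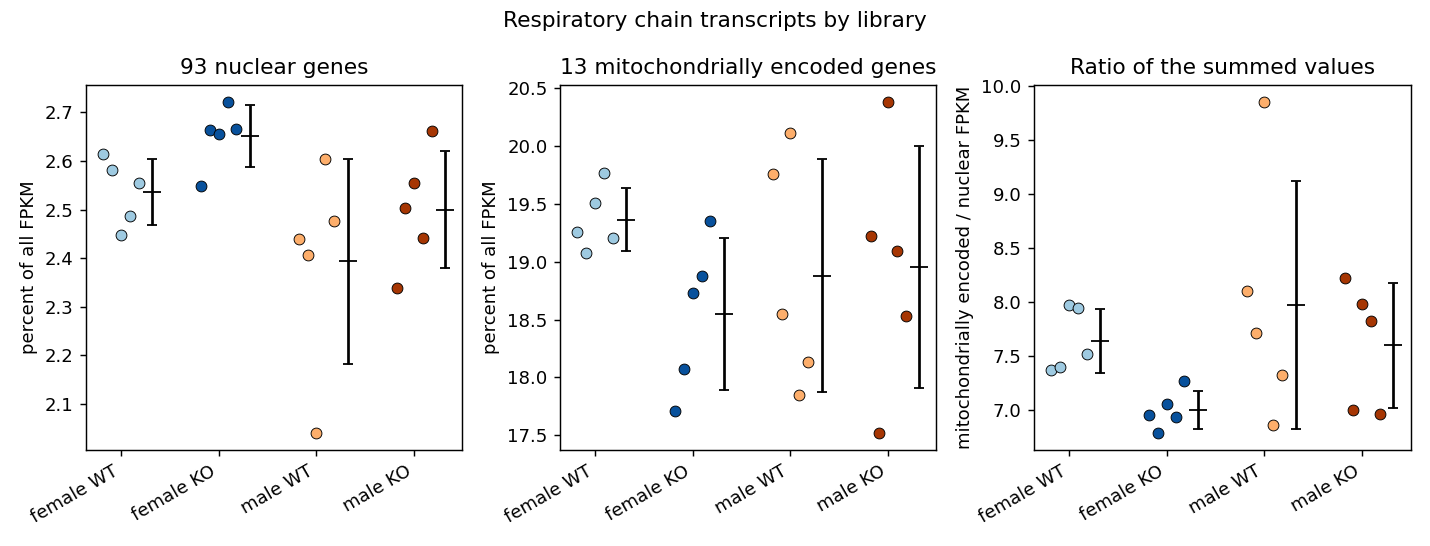
Percent of all FPKM in the 93 nuclear and the 13 mitochondrially encoded respiratory chain genes, and the ratio of their sums, in each of 20 libraries by group, with the mean and SD (n = 5) beside the points. The ratio in female KO (6.78 to 7.26) lies below that in female WT (7.37 to 7.97), and male WT replicate 3 lies apart at 9.86.

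Among the mitochondrially encoded genes, levels spanned a wide range. mt-Co1, the catalytic subunit of complex IV that binds oxygen, was highest, at 7025 ± 190 FPKM in WT females and 7037 ± 347 in KO females. In males it was 6685 ± 305 FPKM in WT and 6901 ± 436 in KO. mt-Cytb, the only mitochondrially encoded subunit of complex III, averaged 4767 FPKM over 20 libraries, and the complex I subunit mt-Nd1 averaged 4669 FPKM. The ranges of mt-Cytb and mt-Nd1 over the 20 libraries overlapped, and their order within libraries was not tested. mt-Nd6, the one gene of the 13 read from the other strand, was lowest at 378 ± 22.5 FPKM in female WT and 405 ± 28.0 in female KO. mt-Nd6 and mt-Nd5 overlap by 14 bases on opposite strands, and strand use in the counting is not given in the sources used here, so reads there cannot be assigned with certainty.

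No mitochondrially encoded gene passed the test of KO against WT in either sex (limma, adjusted p under 0.05). In females 5 of 13 lay above 0 and the median log2 difference was -0.040, against 0.0052 for all 13174 genes tested. In males 9 of 13 lay above 0 and the median was 0.017, against -0.0015 for all genes. The lowest differences in females were those of mt-Atp8 and mt-Nd3.

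mt-Atp8 encodes a small membrane subunit of complex V and shares its transcript with mt-Atp6, the subunit that forms the proton path. It was 4129, 4246, 4542, 4388 and 4438 FPKM in female WT. It was 3532, 3585, 3599, 3697 and 4172 FPKM in female KO. Only female KO replicate 5 reached the WT range, and the log2 difference was -0.23 (SE 0.063, limma adjusted p = 0.0522). That difference passed the threshold under 10 of 31 other settings, among them upper-quartile rescaling (adjusted p = 0.0484) and leaving out female KO replicate 5 (adjusted p = 0.0351), over a range of adjusted p from 0.0351 to 0.454. In males mt-Atp8 was 4081 ± 315 FPKM in WT and 3836 ± 359 in KO, a log2 difference of -0.09 (adjusted p = 0.742), and the sexes' KO effects differed by 0.14 (adjusted p = 0.643). mt-Atp6 itself was 4350 ± 73.3 FPKM in female WT and 4104 ± 162 in female KO, a log2 difference of -0.08 (adjusted p = 0.401). Because the 2 genes share a transcript, their unequal differences cannot be read as separate changes in the level of that transcript. How reads in the 43 bases that belong to both genes were assigned is not known. mt-Atp8 is also the shortest mitochondrially encoded gene, though mt-Nd4l, the next in length, had a female difference of only -0.02.

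The sequence of mt-Atp8 is shown because the 2 genes of the shared transcript overlap and because it has the lowest GC content of the 13, 31.9%. It lies on the plus strand at chrM:7766-7969 (mm10, GENCODE M21 transcript), and the capitals mark the 43 bases from position 7927 that also belong to mt-Atp6, from the start codon of mt-Atp6 to the stop codon of mt-Atp8:
mt-Atp8: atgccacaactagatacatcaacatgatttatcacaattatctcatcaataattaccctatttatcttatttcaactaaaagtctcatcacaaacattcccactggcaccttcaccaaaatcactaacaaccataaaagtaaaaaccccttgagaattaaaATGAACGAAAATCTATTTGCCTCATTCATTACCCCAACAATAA

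mt-Nd3, a membrane subunit of complex I, was 1593, 1549, 1601, 1588 and 1557 FPKM in female WT. It was 1349, 1251, 1365, 1377 and 1573 FPKM in female KO. As for mt-Atp8, female KO replicate 5 was the only KO library within the WT range, and the log2 difference was -0.19 (SE 0.057, limma adjusted p = 0.0653). Without that library it was -0.24 (adjusted p = 0.0301), within a range of 0.0301 to 0.574 over all settings. mt-Nd3 also had the lowest GC content but one, 33.0%, whereas mt-Nd6, next at 34.1%, had the highest female difference of the 13, 0.10 (adjusted p = 0.363). After the trend of each library with GC content was removed, the mitochondrial median in females was 0.019 in place of -0.040, and after the trend with transcript length was removed it was -0.098.

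**Figure D2:**
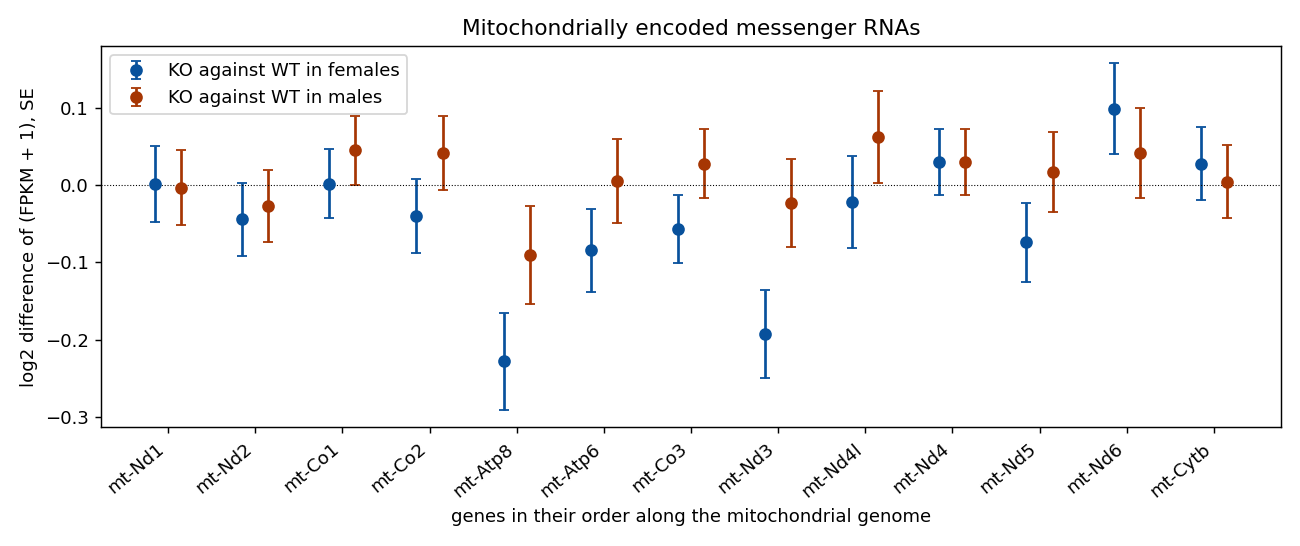
Log2 differences of KO against WT with standard errors for the 13 mitochondrially encoded genes in their order along the mitochondrial genome, in females and in males. The lowest 2 points are mt-Atp8 (-0.23) and mt-Nd3 (-0.19) in females, and no point passed the adjusted threshold.

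The nuclear genes of the chain lay mostly above 0 in female KO, by small amounts. Of 93, 74 were above 0 with a median log2 difference of 0.071, against 0.0052 and 6854 of 13174 for all genes. Under the other settings, single libraries left out aside, the nuclear median ran from 0.025 (without the libraries high in Ttr) to 0.071. Past the adjusted threshold were 2 genes, both higher in KO, where 3.32% of all genes passed and 1.8% passed as higher. The 2 were Cyc1 in complex III and Atp5g1 in complex V. Without an adjustment, 15 nuclear genes had p under 0.05, against 19.5% of all genes. In 6 nuclear genes every female KO library was above every female WT library and in none was every one below, where 3.17% of all genes were wholly above and 2.82% wholly below. These 6 were Cyc1, Atp5b, Atp5d, Atp5g3, Cox6a1 and Ndufa7.

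**Figure D3:**
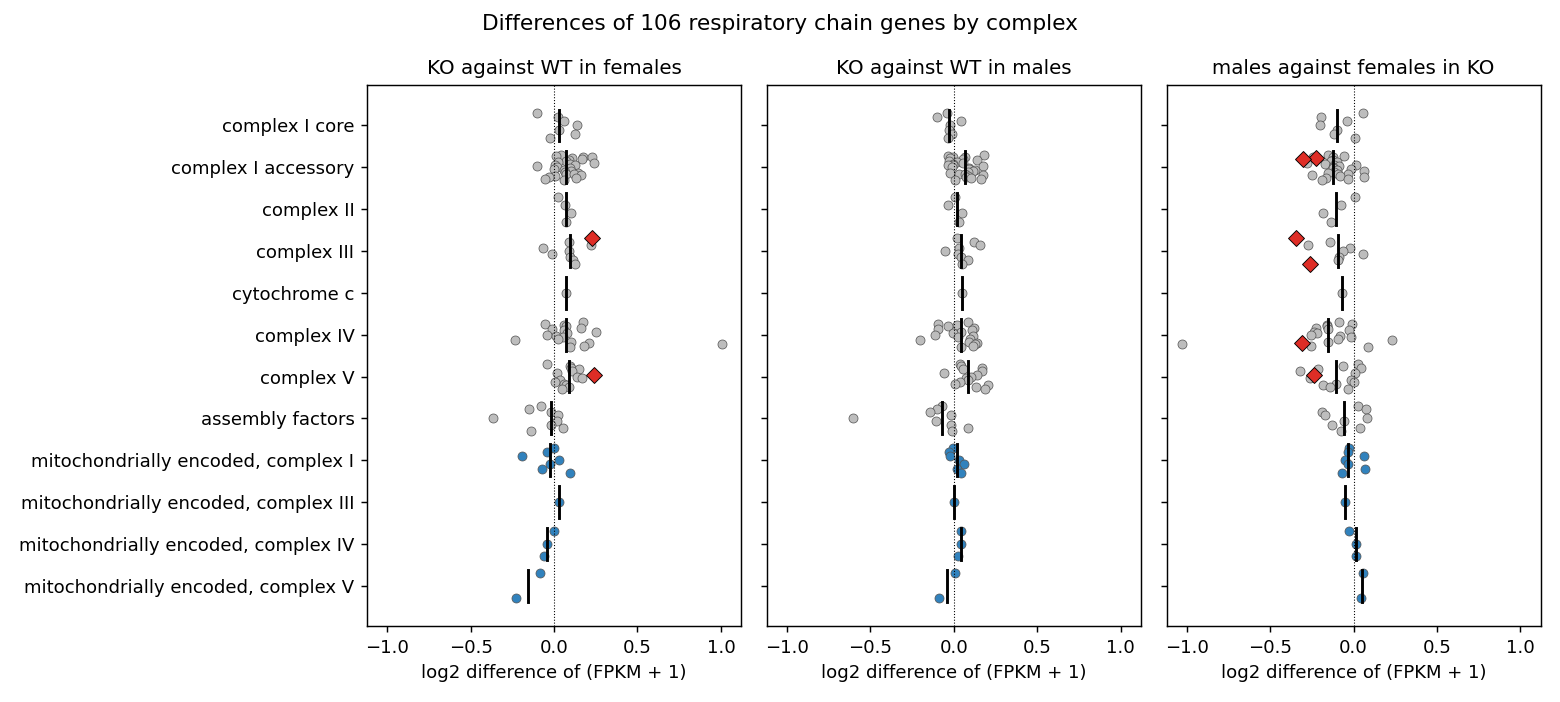
Log2 differences of the 106 genes by complex, for the genotypes in females, the genotypes in males and the sexes in KO. Each point is a gene, blue points are mitochondrially encoded, black bars are class medians and red diamonds passed the adjusted threshold (2, 0 and 6 genes). The point near 1 and near -1 in complex IV is Cox8b.

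Complex I, the NADH dehydrogenase, held 36 of the nuclear genes. Of its 7 core subunits, which carry the flavin and iron-sulfur clusters, 5 were above 0 in female KO with a median of 0.032. Of its 29 accessory subunits, which surround and stabilise the core, 25 were above 0 with a median of 0.071. None of the 36 passed the adjusted threshold. Among the core subunits Ndufs7, which carries the iron-sulfur cluster nearest to ubiquinone, was 28.7 ± 1.9 FPKM in female WT and 31.7 ± 1.7 in female KO (0.14, adjusted p = 0.254). Ndufs1, the largest of them, lay on the other side of 0, at 19.0 ± 1.5 and 17.6 ± 1.2 FPKM (-0.10, adjusted p = 0.341). The smallest p of complex I belonged to Ndufa7 and Ndufb7, both accessory subunits. Ndufa7 was 26.8, 27.9, 26.7, 22.7 and 25.2 FPKM in female WT and 28.6, 29.1, 31.0, 32.6 and 31.9 FPKM in female KO. The groups did not overlap, but the difference of 0.24 (SE 0.086) had an adjusted p of 0.133. Ndufb7 was 11.3 ± 0.79 FPKM in female WT and 12.6 ± 0.64 in female KO (0.14, adjusted p = 0.152).

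The 4 subunits of complex II, succinate dehydrogenase, which also works in the tricarboxylic acid cycle, were all above 0 in female KO, by 0.023 to 0.10, and none passed. They summed to 220 ± 4.0 FPKM in female WT (highest 225.8) and 228 ± 2.3 in female KO (lowest 226.4), so the sums did not overlap. Such a separation was not particular to complex II. The female sums of the listed glycolysis genes (1743 to 1826 FPKM in WT, 1833 to 1902 in KO) and of the neuron markers did not overlap either. Sdha, the flavoprotein subunit, was the highest of the 4 and had the smallest difference, at 91.4 ± 2.7 and 92.8 ± 1.5 FPKM. Sdhd and Sdhc, the membrane anchors, had the smallest p, with differences of 0.07 (adjusted p = 0.307) and 0.10 (adjusted p = 0.460).

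In complex III, 7 of 9 subunits were above 0 in female KO and Cyc1 rose. Cyc1 (ENSMUSG00000022551.7, chr15:76343523-76345934, plus strand, mm10) encodes cytochrome c1, the heme subunit that hands electrons to cytochrome c. It was 75.8, 78.9, 70.7, 63.3 and 67.6 FPKM in female WT. It was 82.3, 84.3, 80.6, 85.0 and 85.5 FPKM in female KO, above every female WT library. The means were 71.3 ± 6.3 and 83.5 ± 2.1 FPKM, a log2 difference of 0.23 (SE 0.053, limma adjusted p = 0.0256). The difference kept its sign in all 31 other settings. The adjusted p rose above 0.05 in a fit of the female groups alone (0.0602). It also did so without female WT replicate 3, 4 or 5 or female KO replicate 2 or 5 (0.0524 to 0.0700). Without the 4 libraries high in Ttr it was 0.229, and without the 3 high in Prl, all female KO, 0.234. In the settings other than single libraries left out, the difference itself ran from 0.15 to 0.24. Uqcr11, a small accessory subunit, was 96.3 ± 7.0 FPKM in female WT and 112 ± 4.3 in female KO (0.22, adjusted p = 0.241). Cycs, the mobile carrier cytochrome c, was 57.5 ± 1.9 and 60.5 ± 3.2 FPKM (0.07, adjusted p = 0.590).

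Complex IV, cytochrome c oxidase, had 15 of 19 nuclear genes above 0 in female KO, a median of 0.075, and none past the threshold. Its most abundant member Cox8a, a small membrane subunit, was 391, 384, 371, 345 and 354 FPKM in female WT. It was 382, 434, 437, 452 and 432 FPKM in female KO. Only female KO replicate 1 fell in the WT range, and the difference of 0.21 (SE 0.067) had an adjusted p of 0.0873, or 0.0482 without that library, with a range of 0.0482 to 0.590 over all settings. Cox4i1, the largest nuclear subunit, was 115 ± 6.2 FPKM in female WT and 130 ± 6.3 in female KO (0.17, adjusted p = 0.0982). Cox6a1 was 239 ± 5.3 FPKM in female WT and 268 ± 13.1 in female KO, without overlap (0.16, adjusted p = 0.25).

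Complex V, the ATP synthase, had 14 of 15 nuclear genes above 0 in female KO, with a median of 0.092, and Atp5g1 rose. Atp5g1, Atp5g2 and Atp5g3 encode the same mature subunit c, the protein of the rotating ring in the membrane. Atp5g1 (ENSMUSG00000006057.15, chr11:96068852-96075670, minus strand) was 19.4, 19.0, 17.8, 16.8 and 15.7 FPKM in female WT. It was 19.0, 20.4, 21.4, 21.5 and 23.1 FPKM in female KO, where replicate 1 lay within the WT range. The means were 17.7 ± 1.5 and 21.1 ± 1.5 FPKM, a log2 difference of 0.24 (SE 0.058, limma adjusted p = 0.0332). The call was lost in a fit of the female groups alone (adjusted p = 0.0838). It was also lost without female WT replicate 3, 4 or 5 or female KO replicate 2, 3, 4 or 5 (0.0526 to 0.0871). The same held without the libraries high in Ttr (0.303) and without those high in Prl, all female KO (0.290). In the settings other than single libraries left out, the Atp5g1 difference itself ran from 0.17 to 0.25. Neither of the following passed. Atp5b, the catalytic subunit, was 169.5 ± 3.4 FPKM in female WT and 181 ± 4.6 in female KO without overlap (0.10, adjusted p = 0.241). Atp5d, of the central stalk, was 54.6 ± 3.4 and 60.7 ± 2.3 FPKM, with 58.4 as the highest WT value and 58.5 as the lowest KO value (0.15, adjusted p = 0.192). Atp5g2, at 34.4 ± 2.3 and 37.9 ± 2.9 FPKM, and Atp5g3, at 75.7 ± 4.6 and 85.1 ± 3.1 FPKM, had differences of 0.14 (adjusted p = 0.484) and 0.17 (adjusted p = 0.298). The shares in the subunit c total lay close together in the genotypes: Atp5g3 supplied 59.2% ± 0.71 in female WT and 59.1% ± 1.8 in female KO, and Atp5g1 13.9% ± 1.1 and 14.6% ± 0.74.

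**Figure D4:**
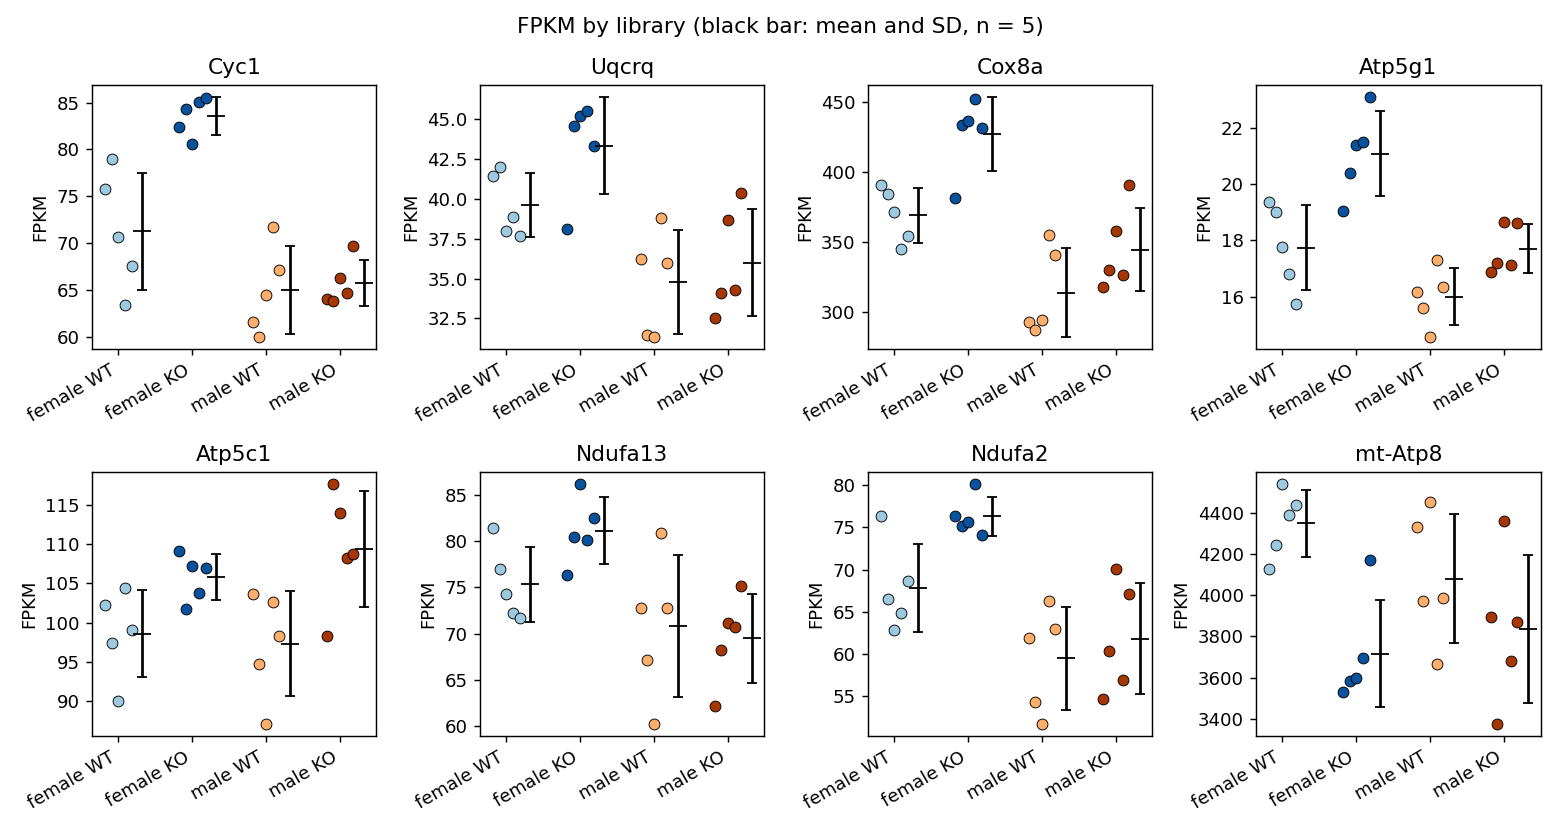
FPKM of 8 genes in each of the 20 libraries, with the mean and SD (n = 5) beside the points; the axes do not start at 0. Cyc1 in female KO (80.6 to 85.5) lies above every other group, and in mt-Atp8 4 of 5 female KO libraries lie below every female WT library.

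In males, KO against WT gave no member past the adjusted threshold, where 0.0455% of all genes passed. With p under 0.05 unadjusted there were 5 members, all nuclear, against 8.69% of all genes, and in no member did the groups separate, where every KO library was above every WT library in 0.607% of all genes and below in 1.4%. The nuclear median was 0.043 with 61 of 93 above 0, and complexes III and V had the largest shares above 0, 8 of 9 and 14 of 15. Of the core subunits of complex I 1 of 7 was above 0. The accessory subunit Ndufb10 was 60.2 ± 7.8 FPKM in male WT and 68.1 ± 7.5 in male KO (0.18, adjusted p = 0.632). Atp5c1, which encodes the central shaft of the ATP synthase, was 104, 94.8, 87.1, 103 and 98.2 FPKM in male WT. It was 98.2, 118, 114, 108 and 109 FPKM in male KO. Only male KO replicate 1 fell in the WT range, and the difference of 0.17 (SE 0.052) had an adjusted p of 0.305. Male WT replicate 3 weighs on these values, since without it the nuclear median in males was -0.011.

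Taking the KO effect of both sexes together, 75 of 93 nuclear genes and 6 of 13 mitochondrially encoded genes were above 0, with medians of 0.058 and -0.0014; without male WT replicate 3 the nuclear median was 0.024. Higher in KO past the threshold were 2 genes, Atp5g1 (0.19, SE 0.041, adjusted p = 0.0186) and Atp5c1 (0.13, SE 0.036, adjusted p = 0.0493), where 3.22% of all genes passed and 1.38% passed as higher. Atp5g1 passed with each single library left out. It did not pass without the libraries high in Ttr (adjusted p = 0.114) or Prl (adjusted p = 0.127). Atp5c1 passed in only 4 of the 20 fits that left out a library. Cox8a was just outside (0.17, adjusted p = 0.0506). The difference between the KO effects of the sexes passed for no member, where 0.0455% of all genes passed. With p under 0.05 unadjusted there were 5 members, against 10% of all genes. Thus the higher Cyc1 in female KO was not shown to differ from the male effect, which was 0.02 (difference of effects -0.21, adjusted p = 0.376).

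Among KO mice most nuclear genes lay lower in males than in females, and 6 passed as lower. Of 93, 76 were below 0 with a median of -0.12, against -0.0098 for all genes. That median was -0.024 with the length trend of each library removed and -0.071 without male KO replicate 1. The 6 that passed are set against all genes, of which 3.13% passed as lower and 5.38% in either direction. With p under 0.05 unadjusted there were 29, against 23.3% of all genes. In 9 nuclear genes every male KO library lay below every female KO library and in none above, against 4.52% and 3.5% of all genes. This comparison shares the female KO libraries with that of the female genotypes, and Cyc1 and Atp5g1 passed in each. Cyc1 was 64.0, 63.9, 66.3, 64.7 and 69.7 FPKM in male KO, below every female KO library, with a difference of -0.34 (SE 0.053, adjusted p = 0.0030). That call held with each single library left out and was lost without the libraries high in Prl (adjusted p = 0.0938), the highest of all settings. In the settings other than single libraries left out, the Cyc1 difference itself ran from -0.35 to -0.21. Atp5g1 was 16.9, 17.2, 18.7, 17.1 and 18.6 FPKM in male KO (-0.24, adjusted p = 0.0275).

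The other 4 lie in complexes I, III and IV. Cox8a was 318, 330, 358, 327 and 391 FPKM in male KO, where replicate 5 reached the lowest female KO library (-0.31, SE 0.067, adjusted p = 0.0180). Ndufa2, an accessory subunit of complex I, was 54.6, 60.4, 70.1, 56.8 and 67.1 FPKM in male KO, below the female KO range of 74.2 to 80.2 (-0.31, adjusted p = 0.0258). Uqcrq, an accessory subunit of complex III, was 36.0 ± 3.4 FPKM in male KO and 43.4 ± 3.1 in female KO (-0.26, adjusted p = 0.0309). Ndufa13, an accessory subunit of complex I also known as GRIM-19, was 69.5 ± 4.8 and 81.2 ± 3.6 FPKM (-0.22, adjusted p = 0.0461). These 4 calls depended on the settings more than that of Cyc1. Without male KO replicate 1 only Cyc1 remained, as without the libraries high in Ttr. Without those high in Prl, all female KO, none remained. Without male WT replicate 3, which is in neither group but enters the shared estimate of the spread, 17 nuclear genes passed. The share of all genes that passed in that fit is not given here, so the count alone is no result about these genes.

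Among WT mice no member passed the test of males against females, where 0.129% of all genes passed and 0.0304% passed as lower in males, and 18 nuclear genes had p under 0.05 unadjusted, against 10.3% of all genes. The nuclear median was -0.075 with 70 of 93 below 0, and all 13 mitochondrially encoded genes were below 0, with a median of -0.053 and a range of -0.12 to -0.010. The groups separated in 3 members: Atp5f1, a stator subunit of complex V, was higher in every male WT library, where 1.39% of all genes were, and Atp5k and mt-Nd3 were lower in every one, where 0.789% were. Atp5k, a small membrane subunit of complex V, was 142 ± 5.8 FPKM in female WT and 114 ± 15.2 in male WT (-0.32, adjusted p = 0.186). The smallest p belonged to Ndufb10, an accessory subunit of complex I, at 77.9 ± 9.2 FPKM in female WT and 60.2 ± 7.8 in male WT (-0.37, adjusted p = 0.186). In the fits that left out a library the nuclear median ran from -0.13 to -0.028, the latter without male WT replicate 3.

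**Figure D5:**
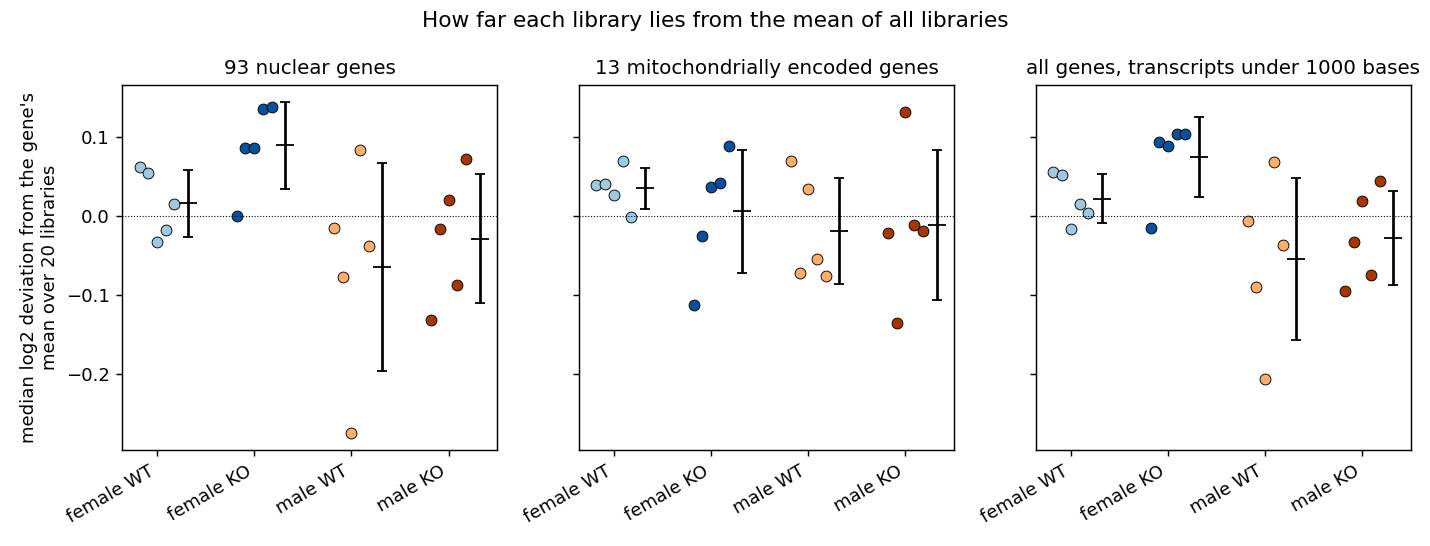
Median log2 deviation of each library from the genes' means over 20 libraries, for the nuclear and the mitochondrially encoded respiratory chain genes and for all genes with transcripts under 1000 bases, with the mean and SD (n = 5) beside the points. Male WT replicate 3 lies at -0.27 for the nuclear genes and at -0.21 for all short transcripts, but at 0.035 for the mitochondrially encoded genes.

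Some properties of the transcripts moved with these differences, though not in every class. The longest transcript of the nuclear genes had a median length of 1129 bases, against 3458 for all genes, and 42 of 93 were under 1000 bases. In male WT replicate 3 the median log2 deviation was -0.38 for those 42, -0.23 for the other 51 and -0.21 for all 584 genes under 1000 bases. The female KO against WT median was 0.071 for 19 nuclear genes under 700 bases and 0.10 for 10 of 3000 bases or more. All genes of those lengths had medians of 0.040 and -0.0093. Between male and female KO the nuclear medians were -0.16 and -0.13, against -0.11 and 0.013 for all genes of those lengths. The 5 female KO libraries also had the steepest rise of expression with GC content, 0.062 to 0.076 on the log2 scale per 10% GC, against -0.028 to 0.031 in female WT, -0.095 to 0.010 in male WT and -0.067 to 0.0068 in male KO. Among transcripts of 55% GC or more the median female difference was 0.14 for 20 nuclear genes and 0.065 for all 3042 genes. Below 45% GC it was 0.020 for 19 nuclear genes, -0.040 for the 13 mitochondrially encoded genes and -0.039 for all 3394 genes. With the GC trend of each library removed, Cyc1 (0.15) and Atp5g1 (0.25) still passed in females, and of the 6 sex differences in KO mice only that of Cyc1 (-0.21) did.

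Markers of cell types also differed in level between these groups. Of the neuron markers 7 of 8 were above 0 in female KO, with a median of 0.044, and none passed. Their sums were 815 to 844 FPKM in female WT and 858 to 868 FPKM in female KO, without overlap. All 5 ependymal markers (median 0.31), 6 of 7 of astrocytes, 5 of 6 of endothelial cells and 3 of 7 of microglia were above 0 and none passed. In female KO against WT all 6 choroid plexus markers tested and both pituitary markers were above 0, though none passed, with summed levels of 11.5 to 906 FPKM and 0.128 to 4.52 FPKM in female WT and 42.0 to 1519 FPKM and 0.508 to 129 FPKM in female KO. All 6 dentate granule cell markers were below 0, with sums of 59.6 to 76.2 FPKM in WT and 43.4 to 62.3 FPKM in KO, and Tdo2 and Trpc6 passed as lower. All 7 oligodendrocyte markers were below 0 too, with sums of 455 to 765 FPKM in WT and 490 to 607 FPKM in KO, and Opalin passed as lower. Of the meningeal fibroblast markers 5 of 6 were above 0, with a median of 0.32 and sums of 20.4 to 28.6 FPKM in WT and 20.7 to 39.2 FPKM in KO, and Col1a1 passed as higher. All 5 erythrocyte markers (median 0.47, sums 310 to 562 and 432 to 673 FPKM) and 5 of 6 of pericytes and smooth muscle (median 0.32, sums of 42.5 FPKM or more in WT and up to 76.1 FPKM in KO) were above 0 and none passed. In males all 6 skeletal muscle markers tested were below 0 and 3 passed as lower in KO, with sums of 35.4 to 49.9 FPKM in WT and 29.9 to 36.6 FPKM in KO, and Ckm was 0.510 to 1.05 FPKM in male WT and listed at 0 in every male KO library. The muscle list includes Pvalb, which is not specific to muscle, so its sums are not a level of muscle RNA alone. Between the sexes in KO all 6 choroid plexus and both pituitary markers tested were below 0 in males against females, 3 of 6 dentate granule cell markers passed as higher and 2 of 6 meningeal fibroblast markers as lower. The part of these cells in the respiratory chain values was not tested beyond leaving out the libraries high in Ttr or Prl.

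Several subunits exist in a widespread form and a form of heart, muscle, lung or testis, and the hippocampal libraries held mostly the widespread form. Cox4i1 averaged 121 FPKM over 20 libraries and Cox4i2, known from lung, 1.16 FPKM. Cox6a1 averaged 238 FPKM and its heart and muscle form Cox6a2 5.37 FPKM. Cox7a2 averaged 122 FPKM and Cox7a1, also of heart and muscle, 2.34 FPKM. Cox6b2 and Cox7b2, forms known from testis, averaged 1.25 and 0.635 FPKM, against 252 FPKM for Cox6b1 and 118 FPKM for Cox7b. Cox6a2 and Cox7a1 passed in no comparison. In male WT, where the muscle list with Pvalb was higher, they were 5.35 ± 1.3 and 2.23 ± 0.71 FPKM against 4.90 ± 0.81 and 2.0 ± 0.81 in male KO. Ndufa4, a complex IV subunit despite its name, averaged 79.6 FPKM and its hypoxia-induced relative Ndufa4l2 1.66 FPKM. Cox7a2l, which helps to join complexes III and IV, averaged 118 FPKM.

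Cox8b, the heart and muscle form of Cox8a, was the exception in its spread. It was 0.974, 0, 0.235, 1.62 and 0.626 FPKM in female WT. It was 0.920, 0.272, 1.94, 4.13 and 8.11 FPKM in female KO. The 2 highest libraries, female KO replicates 4 and 5, are also the 2 highest in Ttr, at 1097 and 1461 FPKM, and the highest female WT library, replicate 4, is the one with Ttr of 878 FPKM. The order did not hold throughout: female KO replicate 3 had Cox8b of 1.94 at Ttr of 48.5 FPKM, and male KO replicate 2, with Ttr of 583 FPKM, had 1.08, below the 1.16 of male KO replicate 4 at 33.6 FPKM of Ttr. The female difference of 1.0 (SE 0.39) had an adjusted p of 0.165. Without the libraries high in Ttr it was 0.45 (adjusted p = 0.514). In males Cox8b was 0.443 ± 0.16 FPKM in WT and 0.635 ± 0.51 in KO.

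The 9 assembly factors among these genes build complex I or, in Atp5s, assist complex V, and are not part of the finished complexes. They were lower than the subunits in level, at 3.90 to 15.9 FPKM on average, and 3 of 9 were above 0 in female KO and 1 of 9 in male KO, with medians of -0.019 and -0.072. None passed in any comparison. Ndufaf1 had the smallest p in females, at 14.7 ± 1.3 FPKM in WT and 13.1 ± 1.3 in KO (-0.15, adjusted p = 0.292), and Ndufaf2 in males, at 6.35 ± 0.70 and 5.64 ± 0.28 FPKM (-0.14, adjusted p = 0.538). Ndufaf4 had separate levels that did not follow the groups. It was 12.4 FPKM in female WT replicate 2, 13.1 in male WT replicate 1 and 14.0 in male WT replicate 4, and at most 4.36 FPKM in the other 17 libraries. That gap was 70.4% of its whole range, the widest of the 106 genes, and no KO library was in the high set.

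Outside the chain itself, the regulator Esrra rose in female KO. Esrra encodes the nuclear receptor ERR alpha, a transcriptional activator of respiratory chain genes, and was the 1 of 11 listed regulators of mitochondrial biogenesis to pass in females. It was 9.68, 8.74, 9.43, 7.89 and 8.48 FPKM in female WT. It was 12.9, 12.3, 11.4, 11.5 and 11.8 FPKM in female KO, above every library of the other 3 groups. The log2 difference was 0.40 (SE 0.055, limma adjusted p = 0.0019) in females and 0.06 (adjusted p = 0.816) in males. The female call held in every setting tried, including those without the libraries high in Ttr or Prl, with adjusted p from 0.00071 to 0.0415. Males were lower than females in KO (-0.40, adjusted p = 0.0011), but the difference of the 2 KO effects did not pass (-0.34, adjusted p = 0.196).

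The other lists held few or no genes past the threshold. In female KO, where 3.32% of all genes passed, none passed among 33 assembly factors of complexes II to V, 10 further complex I assembly factors, 17 genes of the tricarboxylic acid cycle, 24 of mitochondrial DNA maintenance and transcription, 21 of import and the outer membrane, 9 carriers, 10 antioxidant enzymes and 17 of glycolysis. All 10 antioxidant genes were above 0, with a median of 0.078, and 9 of 24 of the mitochondrial DNA list, with a median of -0.022. The smallest p of that last list was for Mterf2, a mitochondrial transcription factor, at 7.89 ± 0.81 FPKM in WT and 6.20 ± 1.1 in KO (-0.31, adjusted p = 0.0762). For the further complex I factors it was Dmac2 (0.15, adjusted p = 0.271), for glycolysis Ldha (0.13, adjusted p = 0.149) and for the carriers Ucp2 (0.35, adjusted p = 0.120). In males none of the 9 lists had a gene past the threshold.

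In male against female KO mice, 8 of the 151 genes of the 9 lists passed, or 5.30%, close to the 5.38% of all genes, so the count is no result about these lists. Esrra was among them. Lower in males were Cox10 (-0.21, adjusted p = 0.0393) and Cox14 (-0.36, adjusted p = 0.0258), which act in heme synthesis and assembly for complex IV. Also lower were the peroxidase Prdx5 (-0.22, adjusted p = 0.0186), the iron-sulfur protein Glrx5 (-0.16, adjusted p = 0.0490) and the inner membrane organiser Chchd6 (-0.25, adjusted p = 0.0266). Higher in males were the import receptor Tomm70a (0.13, adjusted p = 0.0192) and Dld (0.10, adjusted p = 0.0363), a shared subunit of the 2-oxoacid dehydrogenases. Of the 10 antioxidant genes 9 were below 0, with a median of -0.15. Among the 8, Esrra alone still passed without the libraries high in Ttr, without those high in Prl and with the GC trend removed.

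The upstream sequences of the nuclear genes were searched for motifs of factors known to act on them. RefSeq promoters (GRCm38.p6, 250 bases before to 50 after the start) matched 75 of the 93 by symbol or gene identifier, with 80 windows in all. Cyc1, Ndufa2 and Uqcrq, called above, had no window and were not searched. On both strands, GCGCATGCG of NRF1 was in 13.8% of the 80 windows. It was in 1.75% of all 32851 RefSeq windows, which were not limited to the genes tested. CCGGAAG of the ETS factor GABP was in 22.5% and 8.86%, AAGATGGCG of YY1 in 10% and 1.40%, and TCAAGGTCA of the ERR receptors in 2.5% and 0.423%. A window with several motifs counts under each, and the NRF1 motif can overlap its own reverse complement, as in both NRF1 stretches shown. A match describes letters and not binding. The 5 stretches below, on the strand of the gene and before its first annotated base, show Atp5g1, which held none of these motifs in its window, beside its paralog Atp5g3 with the ERR motif, Uqcr11 with a GABP motif, and Ndufa11 and Cox6a1 with NRF1 motifs. Uqcr11 and Cox6a1 held a further NRF1 and GABP motif, respectively, outside the stretch shown. Capitals mark a motif or its reverse complement:
Atp5g1, chr11:96075671-96075770, minus strand: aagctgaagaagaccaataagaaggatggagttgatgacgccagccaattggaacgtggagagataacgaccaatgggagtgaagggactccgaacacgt
Atp5g3, chr2:73911327-73911426, minus strand: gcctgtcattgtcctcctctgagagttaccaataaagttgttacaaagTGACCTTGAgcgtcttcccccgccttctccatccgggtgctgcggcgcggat
Uqcr11, chr10:80406831-80406930, minus strand: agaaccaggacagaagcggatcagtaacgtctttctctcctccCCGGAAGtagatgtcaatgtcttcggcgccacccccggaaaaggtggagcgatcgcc
Ndufa11, chr17:56717662-56717761, plus strand: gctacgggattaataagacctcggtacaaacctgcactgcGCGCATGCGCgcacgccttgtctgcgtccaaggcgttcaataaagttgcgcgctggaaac
Cox6a1, chr5:115348982-115349141, minus strand: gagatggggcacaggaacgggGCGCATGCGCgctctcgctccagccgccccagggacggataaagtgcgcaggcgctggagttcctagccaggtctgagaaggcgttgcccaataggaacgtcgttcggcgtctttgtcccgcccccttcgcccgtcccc
In female KO the 5 genes differed from WT by 0.24 (Atp5g1), 0.17 (Atp5g3), 0.22 (Uqcr11), 0.17 (Ndufa11) and 0.16 (Cox6a1) on the log2 scale. Atp5g1 is shown because it passed in this comparison, and nothing on the motifs follows from these 5 values.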

How the data were processed

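The authors' deposited FPKM tables, 1 per library, were used as deposited. RNA was extracted with TRIzol and libraries were made with a SMARTER mRNA-Seq kit, per the labels' protocols; FastQC, HISAT2, StringTie and mm10 are named in the submitters' processing notes, with no role or version. Whether strand was used is not given in the sources used here. From these values log2(FPKM + 1) was computed, genes at 0.5 FPKM or more in at least 5 libraries were kept (13174, with all 106 members), and limma 3.58.1 (R 4.3.3, trend on mean expression) fitted the 4 groups together (two-sided moderated tests), with Benjamini-Hochberg adjustment over all genes kept, a threshold of 0.05 and 6 comparisons. Fold changes on this scale understate those of low genes. The fit was run on simulated data with independent noise for each gene. Recovery was required there only for changes larger than most of those reported here. Python 3.11.15 made the sums, motif counts and figures. GC content and length are those of the longest GENCODE M21 transcript.

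The members and lists were chosen with earlier results of these data known. Genes were named if mitochondrially encoded, past the threshold in any comparison, among the 2 smallest p in each sex for a complex or for the assembly factors, or a tissue paralog; from each list, those past the threshold or else the smallest p in females. Atp5b, Atp5f1, Ndufaf4, Sdha, Ndufa11 and the marker genes Prox1, Tdo2, Trpc6, Opalin, Col1a1, Ckm, Ttr and Prl were named after their values were seen. Alternatives were other scalings, filters and pseudocounts, a fit of only the compared groups, a replicate block, leaving out each library and leaving out those high in Ttr or Prl; removal of GC and length trends (loess, span 0.5) was added after seeing the data.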

Additional observations from a re-analysis of the deposited data

Results flagged for a closer look

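In 264 sets of 5 values (members and listed genes named by the rule, and the library shares), 14 had a highest or lowest library whose gap to the next, over the whole range, was above 0.71; chance alone marks about 1 set in 20. In female KO, replicate 1 was the lowest for Cox8a (382 FPKM, next 432), Atp5g2 (32.7, next 38.3) and Cox7b (110, next 124). In the same group replicate 4 was the highest for Ndufs6 (48.0, next 42.0), Atp5g3 (90.4, next 84.7) and Tomm70a (62.0, next 60.3), and replicate 5 for mt-Atp8 (4172, next 3697). In male WT, replicate 3 was the lowest for Cycs (43.9, next 56.6), Cox7b (80.4, next 111) and Cox7a1 (1.01, next 2.32), and replicate 1 for Cox10 (5.26, next 6.48). In female WT, replicate 4 was the highest for mt-Co2 (3998, next 3807) and the lowest for Ndufaf8 (12.4, next 14.0), and replicate 1 was the highest for Ndufa4l2 (1.83, next 1.39). No difference between the sexes' KO effects passed for a member.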

How the results depend on the processing

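The counts of members past the threshold were small and moved with the settings. The shares of all genes that passed under the other settings are not given here. A changed count is thus by itself no result about these genes. In females the 2 higher calls became 4 with rescaling to the FPKM outside the mitochondrial genome, with mt-Atp8 and mt-Nd3 added as lower. They became 1 with a fit of the female groups alone, where Cyc1 and Atp5g1 were lost and mt-Atp8 passed as lower, 0 without the libraries high in Ttr, 0 without those high in Prl, and 0 to 4 with single libraries left out. For the mean KO effect the 2 calls became 4 with that rescaling, 4 with a filter of 2 FPKM, 0 and 0 without the libraries high in Ttr or Prl, 1 with the GC trend and 5 with the length trend removed, and 1 to 6 with single libraries left out. For males against females in KO the 6 calls became 12 with a fit of those groups alone, 1 and 0 without the libraries high in Ttr or Prl, 1 with the GC trend removed, and 1 to 17 with single libraries left out. For KO against WT in males, its difference from the female effect and the sexes in WT the count was 0 in every setting. Medians moved as follows. The mitochondrial median in females was 0.019 with the GC trend and -0.098 with the length trend removed; between sexes in WT it was -0.10 and 0.010, and between sexes in KO 0.12 with the length trend removed, where the nuclear median was -0.024. With a denominator without mitochondrial genes the nuclear shares were 3.15% and 3.26% in WT and KO females and 2.95% and 3.08% in WT and KO males, by construction. Same-numbered libraries did not deviate together (correlations of -0.11 to 0.065; at most 2 of 5 libraries were closest to their own number), so the numbers name libraries only; with a replicate block the calls were 1 in females (mt-Atp8, lower, adjusted p = 0.0489; Cyc1 at 0.0550 and Atp5g1 at 0.0641 did not pass), 1 for the mean KO effect (Atp5g1) and 3 for the sexes in KO (Cyc1, Cox8a and Ndufa2). No call turned its direction in any of these settings. Unknown depth limits what can be said of Cox8b and the other transcripts near 1 FPKM.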
